A study of Mus musculus with 4 samples.

Results

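The regions described here are the 4185 distal RNA polymerase II (Pol II) regions of young EC-K4KO brain endothelium that no peak of old WT Cre brain endothelium overlapped. They were chosen from the measured peak lists: peaks of both young EC-K4KO libraries that overlapped each other by at least 1 bp were merged, and the merged region was kept on chromosomes 1 to 19 and X when it lay more than 3000 bp from every annotated transcription start site (TSS) and shared no base with an old WT Cre peak. Of 10160 regions with a peak in both young libraries, 7804 were distal, and the 4185 are 53.6% of those. The other 3619 distal regions were overlapped by a peak of at least 1 old library. The same steps run the other way gave 7807 old WT Cre distal regions, of which 3773, or 48.3%, had no young peak. Because the absence of an old peak chose the regions, that absence is a description and was not tested.

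The study asked how endothelial loss of Klf4, a zinc-finger transcription factor of the vessel wall, compares with aging in the brain vasculature. The Pol II data are 4 chromatin immunoprecipitation libraries, each from 200000 flow-sorted brain endothelial cells, with 2 libraries of old WT Cre mice aged 20 to 23 mo and 2 of young EC-K4KO mice aged 4 to 6 mo. Both groups carry a tamoxifen-inducible Cre driven by Cdh5 (VE-cadherin) regulatory sequence, on a C57BL/6J background, with tamoxifen given at 8 wk according to the methods of the study, and EC-K4KO mice carry floxed Klf4 in addition. Cdh5-driven Cre acts in endothelium throughout the body, so the deletion is not limited to the brain. Males and females were used, and the sex of each library is not given in the sources used here. Genotype and age differed together, so their parts in any difference cannot be told apart. Libraries of young WT Cre or of old EC-K4KO mice were not analysed here. Nothing in the labels says whether the 2 libraries of a group came from different animals, while the methods of the study call the ChIP-seq replicates biological. How much of the spread between them is technical was not tested.

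Pol II is found at promoters, along the bodies of transcribed genes, and at active enhancers, where it makes short unstable transcripts. Enhancers can lie far from the gene they act on, inside or outside other genes, so the nearest gene is a label of position and not a target. Mouse intergenic DNA also holds many interspersed repeats and simple tandem repeats, and reads from near-identical copies are placed less surely.

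The libraries differed in depth and far more in the number of peaks. Fragments ranged from 22705175 to 65734178 and peaks on these chromosomes from 35175 to 234939, with the most peaks in the shallowest library, young EC-K4KO replicate 2. Peaks within 1500 bp of a protein-coding TSS marked 25.8% of 21755 genes in old WT Cre replicate 1 and 24.7% in its replicate 2, but 10.7% in young EC-K4KO replicate 1 and 68.1% in its replicate 2. Of 10 endothelial marker genes (among them Cldn5, Cdh5 and Pecam1), 3 and 5 had such a peak in the old libraries and 0 and 6 in the young ones. The marker genes of neurons, astrocytes, oligodendrocytes, microglia and mural cells were marked at 0 of 6, 2 of 5, 0 of 5, 2 of 5 and 1 of 5 in old replicate 1, and at 1 of 6, 1 of 5, 1 of 5, 0 of 5 and 1 of 5 in young replicate 1. In the second replicates the numbers were 1, 0, 1, 0 and 0 for old WT Cre, and 4, 2, 4, 3 and 3 for young EC-K4KO. Promoter peaks therefore do not show the labelled cell type in either young library or in old replicate 1, since no endothelial marker was called in young replicate 1, and in young replicate 2 the 60% of endothelial markers was below the 68.1% of all genes. In old replicate 1 the 30% of endothelial markers compared with 40% of astrocyte and of microglia markers. Klf4 itself had a promoter peak in each young library, and none was called there in the old ones. A peak near the Klf4 TSS does not check the deletion, since it need not lie in the deleted part of the gene.

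The 3 sequences that head the ranking come first, because they hold a stretch in common. Members were ranked by the smaller of their 2 −log10 q values, where q is the false discovery rate given by the peak caller. The 3 highest of at most 300 bp with no exon, on the plus strand of mm10, hold one identical stretch of 155 bp, which the capitals mark.
Fbxl18 region, chr5:142890302-142890461: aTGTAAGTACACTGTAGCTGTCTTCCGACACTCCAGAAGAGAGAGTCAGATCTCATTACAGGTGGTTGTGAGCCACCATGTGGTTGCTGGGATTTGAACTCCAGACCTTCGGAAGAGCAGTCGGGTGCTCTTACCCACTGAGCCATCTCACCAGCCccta
Olfr761 region, chr17:38001968-38002140: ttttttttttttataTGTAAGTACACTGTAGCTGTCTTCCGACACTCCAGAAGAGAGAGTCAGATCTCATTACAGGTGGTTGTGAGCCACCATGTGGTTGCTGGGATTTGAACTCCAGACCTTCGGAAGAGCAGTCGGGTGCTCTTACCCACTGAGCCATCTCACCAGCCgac
Cdh18 region, chr15:23070280-23070480: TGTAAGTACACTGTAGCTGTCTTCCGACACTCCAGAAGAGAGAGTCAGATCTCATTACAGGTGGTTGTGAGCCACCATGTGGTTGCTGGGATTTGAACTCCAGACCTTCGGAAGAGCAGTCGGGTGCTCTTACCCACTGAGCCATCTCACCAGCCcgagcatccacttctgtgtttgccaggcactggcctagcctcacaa
Read on the minus strand, the stretch has the sequence of a B2 element, a short interspersed repeat derived from a transfer RNA gene. It occurs 5 times without a mismatch on chromosomes 1 to 19 and X, all more than 3000 bp from a TSS. Both young libraries had a peak over 4 of the 5 copies, the 3 printed here and a copy on chromosome 14. Old WT Cre replicate 1 had a peak over 2 copies, those on chromosomes 14 and 7, and old WT Cre replicate 2 over 1, that on chromosome 14. The pileup, the number of fragments over the summit, was 434 and 272 in young EC-K4KO replicates 1 and 2 at the Fbxl18 copy, 45 and 48 at the Olfr761 copy and 36 and 36 at the Cdh18 copy. The stretch thus stood under young peaks of very unequal height although its letters are the same. Aligned reads were not analysed here, so how reads were shared out among copies was not tested.

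A member near Klf4 is printed because Klf4 is the deleted gene. The nearest protein-coding TSS of 4 members was that of Klf4 (ENSMUSG00000003032.8, chromosome 4, minus strand), all upstream of it and all outside protein-coding genes, and 3 of them are described here, at 53.7, 119 and 158 kb. The farthest, the shortest of them, reads as follows on the plus strand of mm10.
Klf4 region, chr4:55690032-55690203: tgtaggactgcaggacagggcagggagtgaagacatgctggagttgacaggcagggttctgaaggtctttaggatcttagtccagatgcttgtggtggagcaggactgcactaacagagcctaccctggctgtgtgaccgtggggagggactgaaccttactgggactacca
The pileups of the 3 members, from nearest to farthest, were 14, 16 and 14 fragments in young EC-K4KO replicate 1 and 15, 21 and 14 in replicate 2. They had 0, 11.5 and 0% soft-masked bases (lower-case repeat bases in the reference), and at most 0.921% of their 24-base words occurred more than once in the genome. These 3 regions near Klf4 were thus of nearly unique sequence and of ordinary height for the set, whose median pileup was 14 in each library. No shared distal region and 1 old-only distal region had Klf4 as its nearest gene. Klf2, the related flow-responsive factor, was nearest to no region of any of the 3 kinds, and its promoter had a peak in every library but young EC-K4KO replicate 1.

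Scaled to depth, members were about as high as the typical peak of their library. Members had a median pileup of 0.397 fragments per 1000000 fragments in replicate 1 (quartiles 0.341 and 0.454) and 0.617 in replicate 2 (0.484 and 0.749). The medians over all called peaks of these libraries were 0.397 and 0.573. Shared distal regions had 0.426 and 0.793. The median fold enrichment over the local background was 4.17 and 5.66 in the members, and 4.60 and 6.96 in the shared regions. The lowest rate at which a peak was called was 0.198 fragments per 1000000 fragments in old WT Cre replicate 1 and 0.291 in old WT Cre replicate 2. The lowest called rates of the young libraries, 0.255 and 0.308, were above the first value, so all 4185 members exceeded it by the way they were chosen, and 3873 (92.5%) exceeded the second in both libraries. Against the median called rates, 0.319 and 0.473, the numbers above in both young libraries were 3386 (80.9%) and 845 (20.2%). The second number was limited by replicate 1, since in replicate 2 alone the lower quartile of members, 0.484, was already above 0.473. These depth-scaled rates are not corrected for the differing background of the libraries, and the old coverage at the members was not analysed here.

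**Figure D1:**
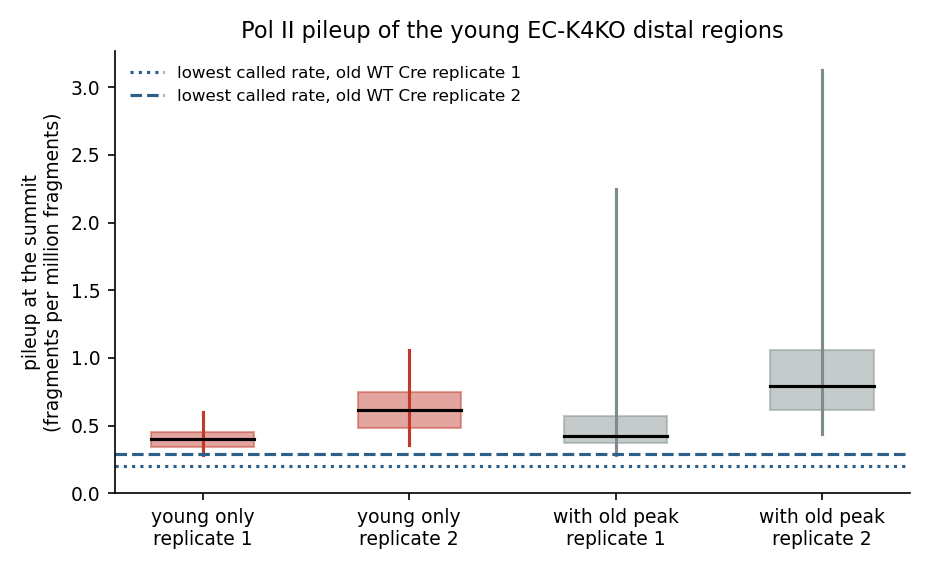
Pileup at the summit, in fragments per 1000000 fragments of the library (vertical axis), of the 4185 young-only regions (red) and the 3619 with an old WT Cre peak (grey) in each young EC-K4KO library. Boxes span the quartiles, black lines are medians and whiskers reach the 5th and 95th percentiles, and the dotted and dashed lines at 0.198 and 0.291 are the lowest called rates of old WT Cre replicates 1 and 2.

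At its thresholds the set was dense. The member nearest to a TSS lay 3008 bp from it, and the farthest region left out for that reason lay 2999 bp away. The smallest gap between a member and an old WT Cre peak was 2 bp, and the least overlapped region left out shared 1 base. An old peak lay within 500 bp of 248 members (5.93%) and within 1000 bp of 466 (11.1%), with a median gap of 7936 bp. The lowest −log10 q was 2.01 in replicate 1 and 2.02 in replicate 2, at the caller's limit of 2. In both libraries, 3456 members (82.6%) had a value of at least 3, 936 (22.4%) of at least 5 and 30 (0.717%) of at least 10. The 2 young peaks shared a median of 157 bp, but fewer than 50 bp in 242 members and 1 bp in 6. The value was higher in replicate 2 in 3308 members (79.0%).

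A distal peak of one young library was found in the other more often when an old library also had it. Of the distal peaks of young EC-K4KO replicate 1 with no old peak, 4390 (19.2%) overlapped a peak of replicate 2, against 56.8% of those with an old peak. For replicate 2 the shares were 2.53% and 17.2%. In old WT Cre replicates 1 and 2, group-alone distal peaks were found in the other old library at 8.29% and 20.3%, and those shared with a young library at 23.3% and 37.4%, so the order was the same in all 4 libraries. The peaks of young EC-K4KO replicate 2 covered 54.6 Mb and those of replicate 1 covered 8.27 Mb, and the part of this gap in the shares was not tested.

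Members lay in genes less often than distal DNA as a whole, an order that turned when the peaks of young EC-K4KO replicate 2 were taken alone (51.3%). The midpoint of 1739 members (41.6%, exact 95% binomial interval 40.1 to 43.1) fell in an annotated gene, and that of 1472 (35.2%) in a protein-coding gene. The share was 35.4% in the shared distal regions, 49.5% in the old-only ones and 45.5% in all 200 bp windows of the distal genome. Introns held 1502 members (35.9%), exons 237 (5.66%), coding sequence 173 (4.13%) and untranslated regions 43 (1.03%). Exons held 2.60% of the distal windows, 2.79% of shared and 4.21% of old-only regions. Regions of a set are not independent of one another, and such intervals cover counting error only.

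Fewer members were made of repeats than in the other distal sets. In 1815 members (43.4%, 41.9 to 44.9) at least 50% of the bases were soft-masked, against 75.3% of shared and 74.6% of old-only regions and 29.2% of distal windows. With the peaks of young EC-K4KO replicate 2 alone the share was 27.6%, below that of distal windows. No base was masked in 811 members (19.4%), and every base in 614 (14.7%). At least 50% of the 24-base words occurred more than once on these chromosomes in 1602 members (38.3%), 80.0% of shared regions and 61.9% of old-only regions. Sequence that met the usual CpG island criteria (over 50% GC, at least 200 bp, observed to expected CpG over 0.6) made up 259 members (6.19%), 20.3% of shared and 7.29% of old-only regions. Position and repeats went together within the members: 26.7% of the mostly masked members lay in a gene and 52.9% of the others.

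Runs of a short tandem unit were rare in the members and frequent in old-only regions. A perfect run of at least 24 bp, with a unit of 1 to 6 bases, occurred in 125 members (2.99%), 231 shared regions (6.38%) and 1659 old-only regions (44.0%), against 4.99% of every 50th distal window. The unit AC, read on either strand, accounted for 37 members (0.884%), 63 shared regions (1.74%) and 1430 old-only regions (37.9%). The next units among the members were AG and AGG, with 11 regions each. The measure was added after the sequences had been seen. It separates the members from old-only regions by what the latter hold, since the members' share was below that of the distal genome.

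**Figure D2:**
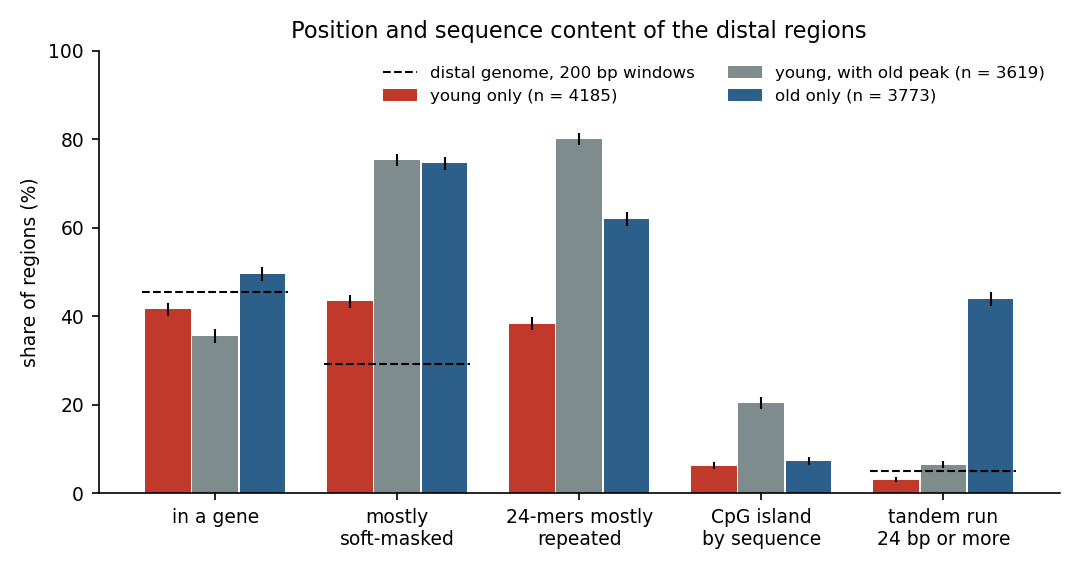
Share of regions (%) that lie in a gene, are mostly soft-masked, consist mostly of repeated 24-base words, meet CpG island criteria, or hold a tandem run of at least 24 bp, for young-only (red), shared (grey) and old-only (blue) distal regions, with exact 95% binomial intervals. Dashed lines give distal genome windows of 200 bp where computed; the young-only bars stand at 41.6, 43.4, 38.3, 6.19 and 2.99%.

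Members were richer in GC than the distal genome. Their median GC content was 54.7% (quartiles 52.0 and 58.1), against 59.4% in shared regions, 49.6% in old-only regions and 41.5% in distal windows. The range ran from 42.1 to 70.7%. Among mostly masked regions the medians were 55.6, 61.3 and 47.9% in the 3 sets, and among the others 54.4, 55.9 and 55.3%. The distance between the sets in GC thus sat mainly in repeat sequence. The median width was 313 bp (237 to 401) in members, 447 bp in shared regions and 343 bp in old-only regions. These are widths of merged peaks. Single, unmerged peaks had medians of 180 bp without young EC-K4KO replicate 1 and 187 bp without replicate 2, and the median of members was 352 bp with lists of equal length. The fragment length used by the caller was 160 and 151 bp in the young and 174 and 162 bp in the old libraries, and its part in the widths was not tested.

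**Figure D3:**
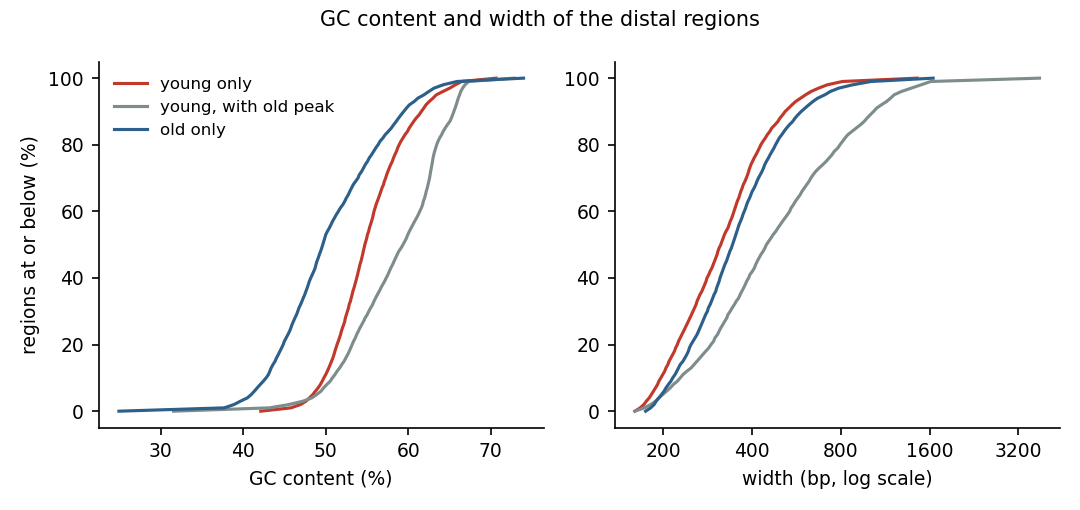
Cumulative share of regions (%) by GC content (left, %) and by width (right, bp, log scale) in young-only (red), shared (grey) and old-only (blue) distal regions. The young-only median lies between the others in GC (54.7%), where the curves cross at both ends, and is the lowest in width (313 bp).

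Tests of these measures used the 4 libraries as the units, over each library's distal peaks that no library of the other group overlapped (two-sided exact permutation test, for which 0.33 is the smallest p that 2 against 2 libraries allow). These peak sets rest on the same rule of absence, so the tests compare libraries and lend no support to the choice of members. The share of peaks in genes was 53.4 and 53.6% in the old libraries against 44.8 and 51.3% in the young ones, means of 53.5 ± 0.179 and 48.1 ± 4.58 (SD, n = 2; exact permutation p = 0.33). The mostly masked share was 43.1 and 49.7% in old WT Cre against 38.1 and 27.6% in young EC-K4KO (46.4 ± 4.63 and 32.9 ± 7.44; exact permutation p = 0.33). In neither measure did the groups overlap. The young libraries lay 6.47 points apart in the share in genes and 10.5 in the masked share, and the smallest gap between a young and an old library was 2.04 and 4.99 points. Mean GC was 52.2 and 52.9% in the old libraries against 53.7 and 52.4% in the young ones, and the groups overlapped (exact permutation p = 0.67). Median width was 213 and 190 bp in the old libraries against 187 and 180 bp in the young ones (exact permutation p = 0.33). The width difference of -18 bp was only -1.5 bp with lists of equal length. AC runs were held by 12.7 and 15.3% of old peaks and by 1.08 and 1.19% of young peaks, means of 14.0 ± 1.81 and 1.13 ± 0.0727 (exact permutation p = 0.33). Runs of any unit were held by 17.5 and 19.3% of old peaks and by 2.88 and 3.15% of young peaks, means of 18.4 ± 1.31 and 3.02 ± 0.191 (exact permutation p = 0.33). In both kinds of run the gap between the groups was wider than the gap between libraries of a group. This exact test cannot reach a p of 0.05 with 2 against 2 libraries.

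**Figure D4:**
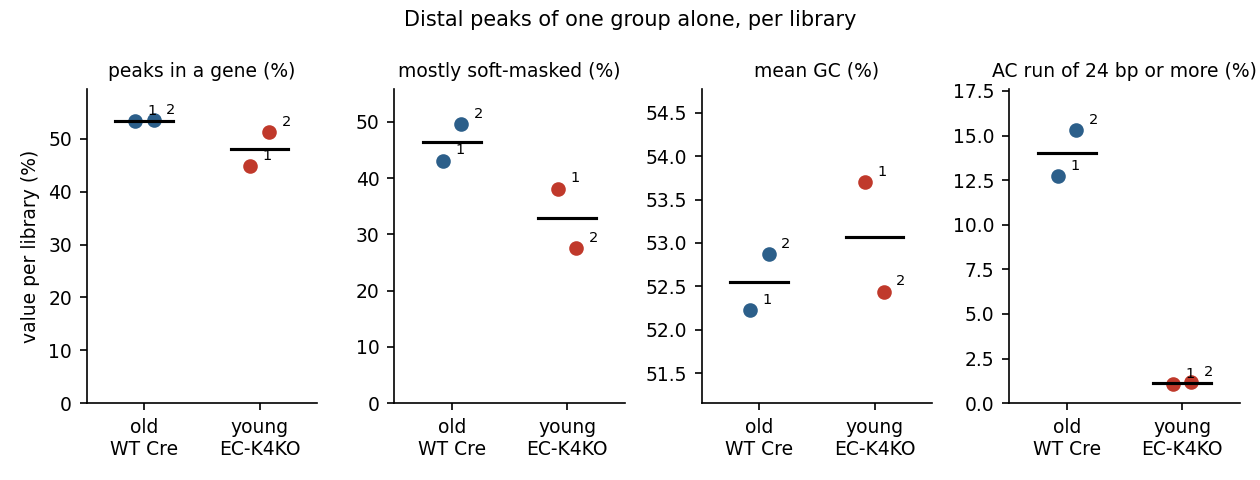
Value of each library (%) for distal peaks that no library of the other group overlapped: share in a gene, share mostly soft-masked, mean GC, and share with an AC run of at least 24 bp. Points are the libraries (numbered by replicate), lines are group means, and only the GC panel does not start at 0; AC runs stand at 12.7 and 15.3% for old WT Cre against 1.08 and 1.19% for young EC-K4KO.

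Members were spread over every chromosome, from 106 on chromosome 19 to 332 on chromosome 1, but thinly on X. Autosomes held 1.67 members per Mb, between 1.27 on chromosome 16 and 1.93 on chromosome 8, and X held 0.392 (67 members). Shared regions stood at 1.41 per Mb on autosomes and 0.836 on X, and old-only regions at 1.52 and 0.140. In all peaks of a library the density on X relative to autosomes was 0.209 and 0.256 in the old and 0.171 and 0.561 in the young libraries. The low density on X was thus common to all 4 lists and least marked in young EC-K4KO replicate 2. The median distance to the next member was 190004 bp, and 158 (3.78%) had another within 10 kb. These distances were not compared with those of randomly placed regions.

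The members had 3055 nearest protein-coding genes, 14.0% of all 21755, and 2323 of these genes were nearest to 1 member, 491 to 2, 145 to 3 and 96 to 4 or more. The shared and old-only regions were nearest to 10.8% and 12.8% of genes. The nearest genes of all 3 distal sets were long. The median was 38.8 kb for members, 39.1 kb for shared and 45.9 kb for old-only regions, against 17.4 kb for all protein-coding genes. The median distance to their TSS was 62.9 kb for members, and 75354 and 54309 bp for shared and old-only regions. Over 100 kb from any TSS lay 429 members (10.3%), 10.6% of shared and 9.44% of old-only regions. Within 10 kb lay 1018 members (24.3%). Of the nearest genes of members, 31.4 and 29.8% had a promoter peak in the old libraries, against 15.1 and 72.2% in the young ones. The shares over all genes were given above as 25.8, 24.7, 10.7 and 68.1%. The nearest genes were thus marked somewhat more often than all genes in each library, old and young. For the nearest genes of old-only regions the values were 33.2, 31.2, 14.3 and 76.6%.

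The genes nearest to the most members were often far from them, and some of these members lay inside other genes. Cdh20, a classical cadherin, was nearest to 9 members at 112 to 2380 kb, none of them inside it. Slc16a7 (a monocarboxylate transporter), Myom2 (a sarcomere protein) and Tenm3 (a teneurin adhesion receptor) were nearest to 8 each, with 0, 1 and 2 of the members inside the gene. Ntm (neurotrimin, a neural adhesion molecule) was nearest to 7, and 4 lay within its 968 kb. Got2, Tmem114, Cobl, Gm826 and Maf were nearest to 6 each, at 25.6 kb or farther. Cdh20 was also nearest to 9 shared regions and no old-only region, and Tenm3 to 3 and 5. Among genes that contained members, Csmd1, a large complement-regulator gene of 1643 kb, held 8 and Wwox, a large oxidoreductase gene of 913 kb, held 5. Several of the members assigned above to Myom2 lay inside Csmd1, and several of those assigned to Maf inside Wwox. Csmd1 and Wwox were picked for their number of members, and they held 4.87 and 5.48 members per Mb.

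The 10 members with the highest smaller −log10 q were led by repeats and by sequence with further copies. Besides the 3 copies of the B2 stretch they lay nearest to Gpm6a, H60c, Sfi1, Mup12, Mup18, Esr1 and Sos2. At Gpm6a, a neuronal membrane glycoprotein gene 395 kb away, the pileup was 91 and 100 fragments with a fold enrichment of only 3.61 and 3.49, since the local background there was 11.4 and 21.6 times the genome-wide value of the library. All of its 24-base words occurred more than once, although no base was masked. The members near H60c (an NKG2D ligand), Mup12 and Mup18 (major urinary proteins, a family of near-identical copies) also consisted wholly of such words. The Esr1 member, chr10:4856861-4857194 inside the estrogen receptor gene and 147 kb from its TSS, was the one of the 10 with almost none, 0.322%. Its pileup was 25 and 39 fragments and its fold enrichment 8.29 and 16.2. At the other 9, at least 67.3% of the words occurred more than once.

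Cdh5, the endothelial cadherin whose regulatory sequence drives the Cre in both groups, was nearest to 5 members, all upstream of its TSS, and to 3 shared and 1 old-only region. The members lay at 9.68, 23.2, 64.2, 151 and 246 kb. The pileups at the 3 nearer were 34, 33 and 27 fragments in young EC-K4KO replicate 1 and 62, 50 and 65 in replicate 2, and those at the 2 farther were 16 and 14, and 19 and 12. The fold enrichment went the other way, with 2.45, 3.89 and 2.52 at the 3 nearer and 4.60 and 4.68 at the 2 farther in replicate 1, and 3.10, 4.20 and 4.58 against 8.27 and 5.66 in replicate 2. The 3 nearer thus had the higher pileups and the lower fold enrichments in both libraries. They lay in a segment of raised local background, chr8:104020001-104200000, whose borders were set by 20 kb bins in which the median of young EC-K4KO replicate 2 was at least 3, so its values are a description with no test. The median local background of called peaks there, as a multiple of the library's genome-wide value, was 1.26 and 2.24 in the old libraries against 3.89 and 9.80 in the young ones, with means of 1.75 ± 0.692 and 6.84 ± 4.18 (SD, n = 2). Within 500 kb on either side it was 1.00 and 1.00 in the old libraries and 1.12 and 1.31 in the young ones. Both young libraries exceeded both old ones, although they lay farther from each other than the lower of them from the higher old one. The Cre transgene carries Cdh5 sequence, and its part in this background was not tested.

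**Figure D5:**
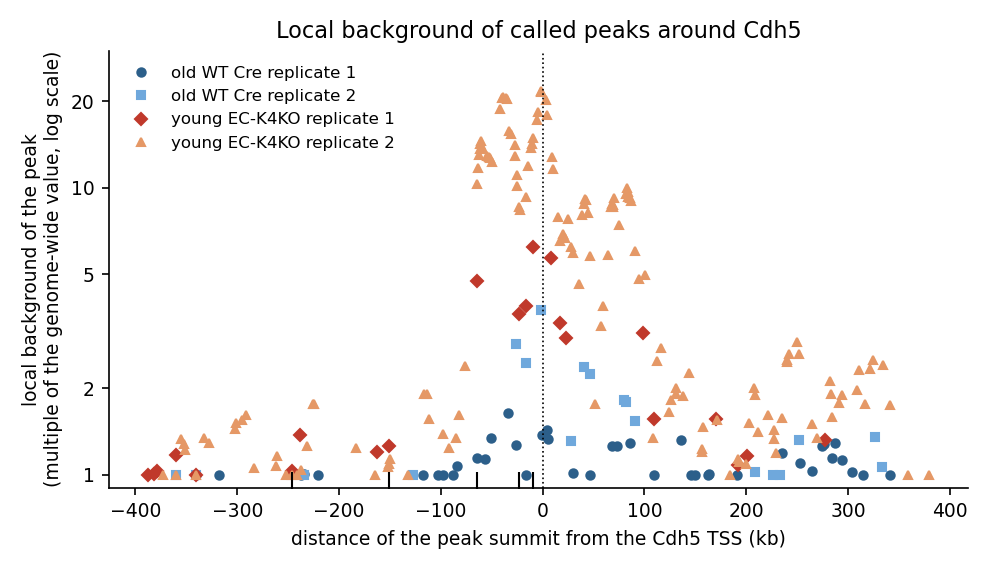
Local background of each called peak, as a multiple of the genome-wide value of its library (vertical axis, log scale), against distance of its summit from the Cdh5 TSS (kb), for the 4 libraries. Ticks at the bottom mark the 5 members. Within the 180 kb segment the medians are 1.26 and 2.24 for old WT Cre against 3.89 and 9.80 for young EC-K4KO.

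A second segment, between Ezh2 and Pdia4 on chromosome 6 (chr6:47640001-47780000), was raised in all 4 libraries and held 7 members. The median local background was 8.57 and 13.1 in the old libraries against 12.1 and 25.7 in the young ones, so the groups overlapped. It also held 15 shared regions and no old-only region. In both young libraries 184 members (4.40%) had a local background of at least 2 times the genome-wide value, against 11.6% of shared regions. Of old-only regions, 0.424% had such a background in both old libraries. Counted in 1 library at a time, peaks with such a background made up 0.929 and 2.00% of the old lists and 6.37 and 19% of the young ones.

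The gene lists, read against the 14.0% of genes nearest to a member, differed in how many of their genes had one. Of 39 annotated genes of TGF-beta, BMP and Wnt signalling, 13 (33.3%) were nearest to a member, among them Tgfbr2 (the type II TGF-beta receptor, 3 members), Axin2 (a Wnt pathway scaffold and target, 3), Smad6 and Lrp6. Of 28 SOX, FOX, GATA, MEF2 and related endothelial factors, 10 (35.7%) were, led by Mef2c and Nr2f2, a regulator of venous identity, with 3 each, then Mecom and Mef2a. Senescence and cell cycle arrest had 9 of 33 (27.3%), namely Igfbp7, a secreted growth factor binding protein, with 5, Cdkn2a, Bcl2 and Hmgb2 with 2 each, and others. VEGF, Tie and Notch signalling had 8 of 30 (26.7%), with Nrp1, Vegfc, Kdr and Hey1. Several of these genes were also nearest to other distal regions, Tgfbr2 to 5 old-only regions and no shared one, Axin2 and Mef2c to 1 shared region each, Nr2f2 to 2 shared and 2 old-only, and Igfbp7 to 6 shared and 2 old-only. Cdkn2a, Bcl2 and Hmgb2 were nearest to neither kind. The same lists had 28.2, 42.9, 33.3 and 23.3% of their genes nearest to an old-only region, where 12.8% of all genes were. Shared regions were nearest to 8, 8, 3 and 6 genes of these lists, and to 10.8% of all genes. These 4 lists are those with the highest shares apart from the short marker lists, so their shares are a description. The median gene of the 4 lists was 47.4, 14.0, 20.2 and 44.6 kb long.

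The other lists had shares on either side of that for all genes. ETS factors had 5 of 25 (20%, with Ehf, Elf1, Ets1 and Spi1), junction genes 5 of 29 (17.2%, with Cdh5, Afdn, Pard3 and Cdh2) and KLF and SP factors 4 of 26 (15.4%, with Klf4, Klf9, Klf3 and Klf12). Barrier transporters had 4 of 27 (14.8%, Slc6a6, Lepr, Slc16a1 and Slc22a8) and ADAMTS and basement membrane genes 6 of 42 (14.3%, with Adamts6, Adamts5, Adamts18 and Adamts17). Stress response had 4 of 35 (11.4%, Txnrd1, Hsph1, Sesn1 and Gclc), immediate early genes 3 of 27 (11.1%, Jun, Fos and Nr4a2) and leukocyte adhesion and NF-kB 3 of 36 (8.33%, Cxcl12, Tnfrsf1b and Tlr4). Of marker genes, 2 of 10 for endothelium (Cdh5 and Kdr), 2 of 6 for neurons (Syt1 and Snap25) and 1 of 5 for astrocytes (Slc1a3) were nearest to a member, and none of 5 each for microglia, mural cells and oligodendrocytes. Against the 12.8% of all genes nearest to an old-only region, the junction list had 34.5%, the KLF and SP list 26.9%, the leukocyte list 25%, the ADAMTS and basement membrane list 21.4%, ETS factors 20%, transporters and immediate early genes 18.5% each and stress response 11.4%. In the same order of lists, shared regions were nearest to 7, 4, 5, 10, 4, 3, 2 and 1 genes, and to 10.8% of all genes.

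Single members near vascular genes were mostly modest peaks at a distance. The Tgfbr2 member 18.9 kb upstream (chr9:116194195-116194362) ranked 60th by the smaller −log10 q, with pileups of 25 and 16 fragments, and a second member lay inside the gene at 24.4 kb with 15 and 16. Of the 3 members assigned to Axin2, 2 lay inside Cep112. The Igfbp7 members lay 235 to 1771 kb upstream, in a span with few genes, and the highest-ranked of them (22 and 13 fragments) was wholly masked. The Cdkn2a members, 43.1 and 56.0 kb downstream of the nearest TSS, were 78.6 and 92.1% masked. A member 9.12 kb upstream of Txnrd1, thioredoxin reductase, had pileups of 22 and 16, and one 14.4 kb upstream of Klf9 had 17 and 26, both with under 6% of bases masked.

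Short words bound by known factor families were counted in the 200 bp around the summit, on both strands, and compared with 200 bp windows of the distal genome. A match is a description of letters and not a binding site. The words were CCGGAAGT (ETS) and CAGGAAG (ETS core), which share the letters GGAAG but cannot match at the same place, GGGNGNGGC (KLF/Sp), TGACGTCA (CRE), TGANTCA (AP-1), GCGCANGCG (NRF1), TGTTTAC (forkhead) and CACGTG (E-box). For each word the highest-ranked member of at most 300 bp with no exon is shown as 100 bp of the plus strand of mm10, with the match nearest to the summit in capitals.
Rps24 (ETS), chr14:24542648-24542747: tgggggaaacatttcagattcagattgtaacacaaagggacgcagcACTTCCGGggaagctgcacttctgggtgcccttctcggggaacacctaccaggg
Sos2 (ETS core), chr12:69654123-69654222: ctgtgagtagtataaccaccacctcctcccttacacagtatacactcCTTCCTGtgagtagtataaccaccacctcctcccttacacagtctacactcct
Gpm6a (KLF/Sp), chr8:55349490-55349589: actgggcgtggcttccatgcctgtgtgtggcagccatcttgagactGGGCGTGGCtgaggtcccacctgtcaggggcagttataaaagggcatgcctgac
Slc16a7 (CRE), chr10:124583162-124583261: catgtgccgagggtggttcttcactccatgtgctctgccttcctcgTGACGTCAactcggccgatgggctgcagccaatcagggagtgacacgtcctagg
Zfp988 (AP-1), chr4:147340275-147340374: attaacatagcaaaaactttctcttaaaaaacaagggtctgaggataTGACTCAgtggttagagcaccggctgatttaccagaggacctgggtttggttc
Gm28729 (NRF1), chr9:96544179-96544278: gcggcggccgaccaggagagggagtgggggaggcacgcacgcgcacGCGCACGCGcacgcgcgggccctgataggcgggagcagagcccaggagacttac
Lrrc23 (forkhead), chr6:124787754-124787853: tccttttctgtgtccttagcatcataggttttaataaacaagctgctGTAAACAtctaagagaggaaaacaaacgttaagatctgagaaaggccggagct
Gm10553 (E-box), chr1:85026457-85026556: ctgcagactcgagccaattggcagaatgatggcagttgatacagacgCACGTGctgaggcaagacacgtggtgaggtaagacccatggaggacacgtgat
The ETS core word was in 399 members (9.53%), against 9.28% of shared, 5.67% of old-only regions and 6.12% of distal windows. The KLF/Sp word was in 275 (6.57%), against 3.79, 3.50 and 2.24%. The AP-1 word was in 174 (4.16%), against 1.58, 1.83 and 5.97%, and the E-box in 166 (3.97%), against 3.37, 3.87 and 1.9%. The forkhead word was in 108 members (2.58%), the CRE word in 31 (0.741%), the NRF1 word in 26 (0.621%) and the longer ETS word in 6 (0.143%), with 3.0, 0.101, 0.0654 and 0.104% in distal windows. These words were in 2.16, 0.608, 0.221 and 0.0829% of shared regions. Old-only regions had them at 2.17, 0.424, 0.954 and 0.0530%, so the NRF1 word was more frequent there than in the members.

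In windows of like composition some of these gaps narrowed and others turned, while that of the forkhead word did neither. Among windows with 50 to 60% GC and under 50% masked bases, of which the members gave 1820 and the distal genome 1112345, the KLF/Sp word was in 6.65 and 6.97%, the AP-1 word in 5.71 and 5.64% and the ETS core word in 8.85 and 11.6%, so that all 3 turned: the KLF/Sp and ETS core words from more to less frequent in the members than in the genome, and the AP-1 word from less to slightly more frequent. The longer ETS word was in 0.220 and 0.314% (4 members), which turned from more to less, and the forkhead word, less frequent in the members in either comparison, in 1.26 and 1.71%. The E-box was in 4.34 and 3.60%, the CRE word in 0.385 and 0.191% (7 members) and the NRF1 word in 0.495 and 0.193% (9 members). Old-only windows of the same kind had the KLF/Sp, AP-1, E-box, CRE and NRF1 words at 4.53, 5.14, 6.65, 0 and 1.36%. Shared windows had them at 5.29, 3.41, 4.44, 0.341 and 0.512%. The NRF1 word was thus most frequent in the old-only windows, in 9 of 662. Within this band of GC and masking, the member windows thus had the KLF/Sp and AP-1 words about as often as the distal genome. GC was not matched inside the band, which held 1820 of the 4185 members.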

How the data were processed

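Pol II ChIP-seq peak tables of 4 libraries were used, from brain endothelium of old WT Cre mice (2 libraries) and young EC-K4KO mice (2 libraries). According to the methods of the study, chromatin was cut with MNase, and the authors used Bowtie2 to place trimmed reads on mm10 and called peaks library by library. The file headers name MACS2 2.2.7.1 with a q-value cutoff of 0.01, all duplicates of the input kept and no control library. For each peak the authors deposited the pileup (signal as fragments covering the summit), the fold enrichment (ratio of pileup to local background) and −log10 p-values and q-values. None of these deposited values is normalized between libraries, and without a control a copy-number gain, a repeat or open chromatin raises them as binding does. Narrow peak lists and summit files hold the same peaks and were not used.

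Regions were built with numpy 2.4.6, pandas 2.3.3, numba and scipy 1.17.1 under Python 3.11.15, on GRCm38 (mm10) sequence from RefSeq and the GENCODE M21 basic annotation, whose coordinates match the files. Repeats are the soft-masked bases of that sequence, and no repeat classes were assigned from an annotation. Local background was recovered from pileup and fold enrichment with the caller's pseudocount of 1. Depth limits each list: the smallest called pileup was 13, 8, 9 and 7 fragments. All intervals cover counting error only. The steps were tested on simulated data, in which all 3000 planted overlaps and all 400 planted tandem runs were recovered.

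Genes named are those of the 10 highest-ranked members, the 10 genes nearest to the most members (ties by the higher rank), up to 4 genes of each list, and Klf4 and Klf2. Genes outside this rule name the places of motif examples, host genes and segments, and were chosen after the values were seen. One region near Klf4 is not reported here. Host genes, the local background segments, the tandem runs and the shared B2 stretch were added after the data were seen. The members and lists were chosen with earlier results of these data known. Of the listed genes, 1 was not matched by symbol. Comparisons between groups used exact permutation of the 4 libraries.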

Additional observations from a re-analysis of the deposited data

How the results depend on the processing

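With 2 libraries a group and no control, no difference between groups can reach 0.05 in the exact permutation test, and young EC-K4KO replicate 1 limits which regions are found. Of 119 recomputed values, 23 counts, shares and medians of the members moved past their limits (for a count 1.5 times, for a share or median 1 SD of the young libraries), and 1 difference between groups reversed. These differences were judged by direction alone. Members fell from 4185 to 936 with a q of at most 1e-05, to 2383 with a fold enrichment of at least 4, to 2558 with a reciprocal overlap of 50% and to 1177 with lists of equal length. Leaving out 1 library gave 5000 to 168993 members, with 168993 for the peaks of young EC-K4KO replicate 2 alone, 22910 for those of replicate 1 alone, and 5370 and 5000 without old WT Cre replicate 1 or 2. The share in genes moved only with the library left out, from 40.5 to 51.3%. The mostly masked share rose to 52.9% with equal lists and ranged from 27.6 to 48.9% with a library left out. Median GC was 55.3% at the stricter q and with reciprocal overlap, 56.6% with equal lists and 52.7 to 55.5% with a library left out. Median width was 287.5, 306, 255 and 352 bp with the stricter q, the fold limit, reciprocal overlap and equal lists, and 180 to 327 bp with a library left out. In the tests over libraries, young minus old in mean GC was 0.52 percentage points and -0.11 without young EC-K4KO replicate 1, over a range of -0.11 to 1.15 with a library left out, and it was 1.42 with the stricter q and 1.76 with equal lists, where the groups no longer overlapped (exact permutation p = 0.33). The other differences kept their direction, the AC runs between -16.5 and -11.6 points (main value -12.9) and all tandem runs between -19 and -14.5 (main value -15.4), and the rest were less steady in size. The width difference of -18 bp was -1.5 bp with equal lists (exact permutation p = 1.0), -6.5 without old WT Cre replicate 1 and -29.5 without old WT Cre replicate 2. The share in genes, -5.40 points, was -2.17 without young EC-K4KO replicate 1 and -8.64 without replicate 2, and the masked share, -13.5, was -8.27 without young EC-K4KO replicate 2. The cause was not tested. With replicate numbers as pairs, which are shared numbers only, the replicate block left the mean differences as they were, 0.52 points in GC, -5.40 points in the share in genes, -13.5 in the masked share and -18 bp in width, with exact sign-flip p of 1.0 for GC and 0.5, the smallest 2 pairs allow, for the others. The combined p rule, other TSS definitions, a 500 bp gap and autosomes alone moved none of the 5 descriptive values. Tests of tandem runs were added after the data were seen.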
